A study of Sus scrofa with 8 samples.

Results

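Cell division markers are genes whose mRNAs are made mainly in cells that copy their DNA and divide, and 10 of them were looked up in the liver transcriptomes of young and old sows: MKI67, TOP2A, CCNB1, CCNA2, CDK1, PCNA, MCM2, RRM2, BUB1 and CCND1. Members were found by matching Ensembl pig gene identifiers to symbols, and 5 of the 10 had an identifier among the 21607 listed mRNAs: MCM2 (ENSSSCG00000011624), TOP2A (ENSSSCG00000017473), CDK1 (ENSSSCG00000010214), CCNB1 (ENSSSCG00000029326) and BUB1 (ENSSSCG00000030469). The other 5 symbols matched no listed identifier and were not analysed here. Each RNA-seq library was made after rRNA depletion from the liver of 1 sow of the Yana breed, a pig native to China. There were 2 libraries per age, at 180 days (young) and at 8 years (old). No sow received a treatment, all were fasted overnight before slaughter, and they were unrelated over recent generations. The young sows had not given birth and the old sows had done so for many years, so age and breeding history cannot be told apart.

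A cell entering the cycle switches on G1 cyclins and their kinases, loads and fires the helicase complexes that open DNA for replication, and then builds up the cyclin B and CDK1 kinase that drives it into mitosis, where checkpoint proteins watch the attachment of chromosomes to the spindle. Most hepatocytes of an adult liver rest outside the cycle and re-enter it after injury or loss of tissue, while immune, endothelial and blood cells in the organ can also divide. In whole tissue, fewer cells of a type and less RNA per cell cannot be told apart.

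Values were CPM, that is counts scaled to the same total for every library (what that total includes is not given in the sources used here), and came in steps of 1 read, so whole reads were recovered from them. Library totals lay between 61.5 and 91.8 M reads, larger in the young than in the old livers, and 1 read was worth 0.0109 to 0.0162 CPM. Reads on mRNAs came to between 22.5 and 37.6 M per library. The listed mRNAs and lncRNAs took 56.1 and 60.3% of the total in young but 46.0 and 44.0% in old livers, so the CPM of all listed genes together were lower in both old livers. The limit of detection was set at 3 reads of a gene per library. All 5 members were above 0 in at least 2 of the 4 libraries, the condition for testing, and their mean over all libraries was at most 0.258 CPM. Over the 5 members together, young replicates 1 and 2 held 73 and 90 reads and old replicates 1 and 2 held 33 and 27, or summed levels of 0.795 and 1.04 CPM against 0.536 and 0.377 CPM. Per M mRNA reads, this was 1.94 and 2.42 member reads in young and 1.47 and 1.09 in old livers, lower in both old livers as well. Of the 20 values of members by library, 6 were at or under the limit. These were MCM2 in young replicate 1, CDK1 and BUB1 in young replicate 2 and in old replicate 1, and CCNB1 in old replicate 2.

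Among the members with a role in mitosis, CCNB1 and TOP2A were lower in both old livers than in both young livers. CCNB1 encodes cyclin B1, the partner that activates CDK1 at entry into mitosis. Its level was 0.316 and 0.474 CPM in young replicates 1 and 2 (29 and 41 reads) and 0.114 and 0.014 CPM in old replicates 1 and 2 (7 reads and 1 read). The groups did not overlap, although the exact 95% Poisson interval of young replicate 1 (0.211 to 0.453 CPM) still met that of old replicate 1 (0.0457 to 0.234 CPM). Means were 0.395 ± 0.112 CPM (SD, n = 2) in young and 0.0640 ± 0.0707 CPM (SD, n = 2) in old livers. With the reads of each age summed, the level was 6.54-fold lower in old livers (exact 95% interval 3.14 to 15.7), an interval that compares these libraries and covers counting error only. The log2 fold change on log2(CPM + 1) was -0.39 with a standard error of 0.14 (limma, adjusted p = 0.334), and its 95% interval reached from -0.80 to 0.02.

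TOP2A encodes topoisomerase II alpha, which untangles DNA strands so that sister chromosomes can part. It stood at 0.316 CPM (29 reads) in young replicate 1, 0.451 CPM (39 reads) in young replicate 2, 0.195 CPM (12 reads) in old replicate 1 and 0.070 CPM (5 reads) in old replicate 2. Both old livers were thus below both young livers, with old replicate 2 the lowest, and the counting interval of old replicate 1 (0.101 to 0.341 CPM) overlapped that of young replicate 1 (0.211 to 0.453 CPM). The summed reads gave a 2.99-fold lower level in old livers (exact 95% interval 1.74 to 5.43, counting error only). Its log2 fold change was -0.29 on log2(CPM + 1), with a standard error of 0.14 and an adjusted p-value of 0.431 in limma.

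CDK1, the kinase that cyclin B1 activates, did not share this pattern. It had 6 reads in young replicate 1 (0.065 CPM), 0 in young replicate 2, 3 in old replicate 1 (0.049 CPM) and 5 in old replicate 2 (0.070 CPM), and the age groups overlapped. The 0 of young replicate 2 allows up to 0.0347 CPM by the limit of 3 reads, and up to 0.0426 CPM by the two-sided 95% Poisson interval used for the other values. The difference between ages was 0.04 ± 0.11 in log2 fold change (standard error, limma, adjusted p = 0.916), with a 95% interval from -0.31 to 0.38. Its summed reads gave a ratio of old to young of 1.78 (exact 95% interval 0.543 to 6.24, counting error only). BUB1, a kinase of the spindle assembly checkpoint, had 8 reads and 1 read in the young livers (0.087 and 0.012 CPM), against 2 and 5 reads in the old livers (0.032 and 0.070 CPM). Its groups overlapped as well, with the highest and the lowest value both in young livers. Its log2 fold change was 0.00 (0.00275 on log2(CPM + 1), 95% interval -0.35 to 0.36, adjusted p = 0.994, limma), and a difference of either member between ages was not detectable at this depth.

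MCM2, a subunit of the helicase that unwinds DNA at replication forks, was the one member higher in both old livers. It had 1 read and 9 reads in the young livers (0.011 and 0.104 CPM) and 9 and 11 reads in the old livers (0.146 and 0.153 CPM). Young replicate 1 was the lowest, and its counting interval (0.000276 to 0.0607 CPM) met that of young replicate 2. Young replicate 2 lay close to the old livers, with a counting interval of 0.0475 to 0.197 CPM that held both old values. The summed reads put the old livers 2.68-fold higher (exact 95% interval 1.20 to 6.40, counting error only). The difference between ages was 0.12 ± 0.12 in log2 fold change (standard error, limma, adjusted p = 0.689).

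**Figure D1:**
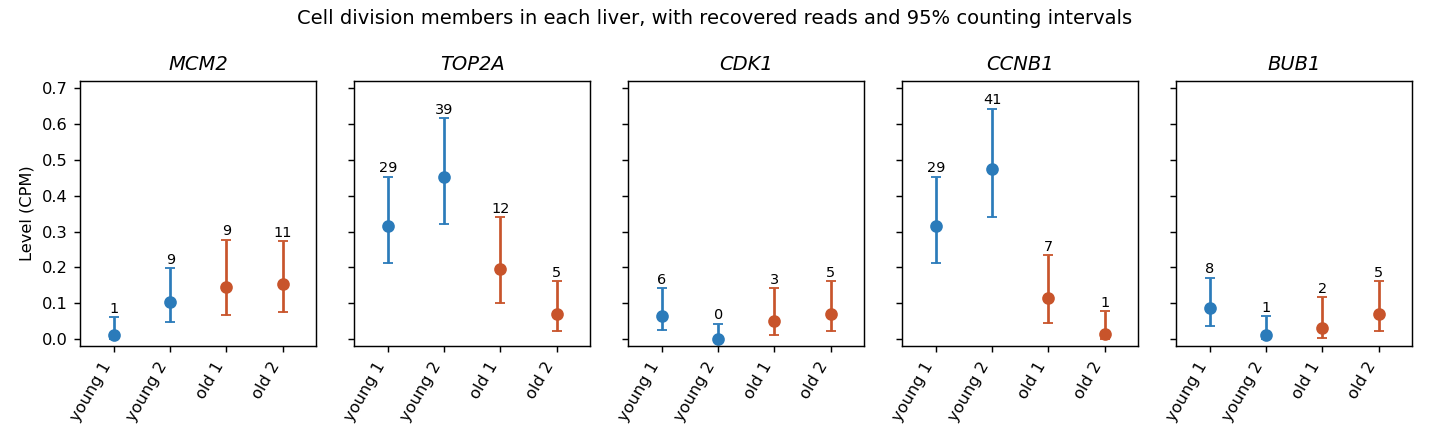
Level in CPM (vertical axis) of the 5 members in each of the 4 livers (horizontal axis), with blue points for young and orange points for old livers, bars for exact 95% Poisson intervals of the reads and the number of reads above each bar. TOP2A and CCNB1 are lower in both old livers, MCM2 is higher in both, and CDK1 and BUB1 overlap between the ages at 0 to 8 reads.

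Each age effect was tested with limma on log2(CPM + 1) over 16898 mRNAs, and a call needed an adjusted p-value under 0.05 and a log2 fold change beyond 1 in either direction. No member passed in limma. The unadjusted p-value was above 0.05 for each member in limma and in both tests of edgeR (exact and quasi-likelihood) with all 4 livers. For CCNB1 alone it fell under 0.05 in some alternatives, at 0.0254 with a pseudocount of 0.1 (limma), 0.0173 with a mean-variance trend (limma), 0.0433 with mRNAs above 0 in at least 1 library kept (limma) and 0.0450 in the exact test of edgeR without young replicate 1, where its adjusted p-values lay between 0.249 and 0.312. The background was the same in limma, as 0% of all mRNAs were called in either direction. Before adjustment, 6.78% of all mRNAs were higher and 8.93% lower with p under 0.05 in limma, 10.3% higher and 2.7% lower in the exact test of edgeR, and 11.6% higher and 3.08% lower in its quasi-likelihood test. For these members the fold threshold could not be met by a lower level in old livers, since on log2(CPM + 1) a complete loss in old livers would give -0.48 for CCNB1 and -0.47 for TOP2A, and less for the others. On the recovered reads, where no such ceiling holds, the exact test of edgeR gave a log2 fold change of -2.42 for CCNB1 (adjusted p = 0.635) and -1.34 for TOP2A (adjusted p = 0.842). These ranged from -4.50 (without old replicate 1) to -1.59 (without old replicate 2) for CCNB1 and from -2.24 to -0.77 for TOP2A with the same livers left out. The same test gave 1.54 for MCM2 (0.70 without young replicate 1 to 3.82 without young replicate 2), 1.04 for CDK1 (0.11 without young replicate 2 to 5.24 without young replicate 1) and 0.26 for BUB1 (-0.50 without young replicate 2 to 2.17 without young replicate 1). After adjustment, that test called 2.7% of all mRNAs as higher and 0.456% as lower in old livers. For a single gene, an exact permutation test of 2 against 2 libraries cannot give a two-sided p below 0.333, so none was used.

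Read as a group, 2 of the 5 members were lower and 1 higher without overlap between the ages, and 2 overlapped. Among all mRNAs tested, 25% were lower and 24.4% higher without overlap. The median log2 fold change of the members was 0.00 (0.00275) against -0.02 for all mRNAs tested, and the summed level, which TOP2A and CCNB1 dominate, was lower in both old livers. The profiles of CDK1 and BUB1 over the 4 livers were the most alike of all pairs of members, with a root mean square difference of 0.0199 between their centred log2(CPM + 1) values, and those of CCNB1 and MCM2 the least alike (0.261). TOP2A and CCNB1 differed by 0.0517. These are likenesses over 4 livers of genes with few reads, and both CDK1 and BUB1 had levels close to 0 in every liver.

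With 1 liver left out, CCNB1 kept a negative log2 fold change, between -0.47 and -0.31, and TOP2A one between -0.37 and -0.21. MCM2 stayed positive, from 0.06 without young replicate 1 to 0.19 without young replicate 2. These signs could not turn, because the age groups of CCNB1, TOP2A and MCM2 did not overlap. CDK1 turned from 0.04 to -0.01 without young replicate 2, the liver in which it had 0 reads. BUB1 turned to -0.05 without young replicate 2 and to -0.02 without old replicate 2. Compared with both young livers, old replicate 1 had 2 of the 5 members below (40%) and 1 above, and old replicate 2 had 2 below and 2 above (40% each). Of all mRNAs tested, 35.4% were below and 35.5% above in old replicate 1, and 35.5% and 34.7% in old replicate 2, so the shares of the members were close to the background.

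**Figure D2:**
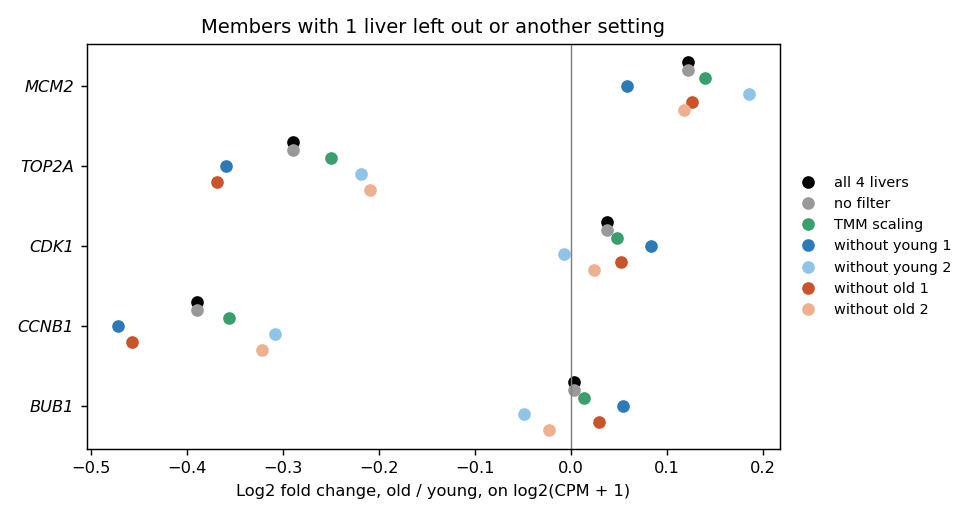
Log2 fold change of old over young livers on log2(CPM + 1) (horizontal axis) for each member (vertical axis), with black points for all 4 livers and coloured points for no filter on low values, TMM scaling and each liver left out. CCNB1 and TOP2A lie below 0 in every setting drawn, MCM2 above 0 in every one, and CDK1 and BUB1 on both sides. With a liver left out, the signs of CCNB1, TOP2A and MCM2 could not turn, because their age groups do not overlap.

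The wider cell cycle was followed with 4 lists, of which 98 of 141 symbols had an identifier and 97 were tested. No gene of these lists was called by limma, where before adjustment 3 were higher and 5 lower with p under 0.05. The exact test of edgeR called 1 of the 97, CCNE1, as higher in old livers (before adjustment, 4 higher and 4 lower). None was called by the quasi-likelihood test of edgeR (before adjustment, 6 higher and 4 lower). Of all mRNAs tested, the shares before adjustment were 6.78% higher and 8.93% lower in limma. They were 10.3% higher and 2.7% lower in the exact test, and 11.6% higher and 3.08% lower in the quasi-likelihood test. After adjustment, the exact test called 2.7% of all mRNAs as higher and 0.456% as lower. Without overlap between ages, 21.6% of the 97 genes were higher and 28.9% lower, against 24.4% and 25% of all mRNAs tested.

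The list of G1 cyclins and kinases had 6 genes with an identifier, of which 3 were higher (50%) and 2 lower (33.3%) without overlap. The shares of all mRNAs tested were 24.4% and 25%. CCNE1 encodes cyclin E1, which activates CDK2 at the start of DNA replication. Neither young liver had a read of it, and the old livers had 0.292 and 0.320 CPM (18 and 23 reads). The mean of the old livers was 9.09-fold higher than 3 reads in each young library allow, leaving out the counting error of the old livers. The adjusted p-value of CCNE1 was 0.0418 in the exact test of edgeR and 0.279 in limma. Its call in the exact test was made with all 4 livers, and it did not hold in every exact test with 1 liver left out. MYC, a transcription factor that drives growth and entry into the cycle, had 60 reads in young replicate 1 and none in young replicate 2 (0.653 and 0 CPM), against 171 and 470 reads in old replicates 1 and 2 (2.78 and 6.54 CPM). The fold change of MYC on the log2 scale, 2.05 ± 0.49 (standard error, limma, adjusted p = 0.255), was the largest positive one of the 4 lists, and the spread within each age was wide. CDC25A, a phosphatase that activates cyclin-dependent kinases, had 0.588 and 1.16 CPM in young livers against 0.520 and 0.543 CPM in old ones. CDK4, the kinase partner of the D cyclins, had 6.40 and 7.65 CPM in young livers and 3.35 and 6.68 CPM in old livers, and its groups overlapped (adjusted p = 0.603, limma).

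Of the DNA replication list, 27 of 39 genes had an identifier and all 27 were tested. Without overlap, 7 were lower (25.9%) and 5 higher (18.5%) in old livers, against 25% and 24.4% of all mRNAs tested. CDC45, which joins the MCM proteins in the active helicase, had the most negative log2 fold change of this list, at -1.22 ± 0.28 (standard error, limma, adjusted p = 0.250). It went from 5.28 and 8.80 CPM in young livers (485 and 762 reads) to 2.21 and 2.55 CPM in old livers (136 and 183 reads), a difference larger than the spread in either age. GMNN, the inhibitor of helicase loading geminin, had 4.54 and 11.6 CPM in young livers and 4.24 and 2.80 CPM in old livers, so that young replicate 1 was close to old replicate 1. RPA2, a subunit of the protein that coats single-stranded DNA, had 1.95 and 1.96 CPM in young livers against 1.06 and 1.36 CPM in old livers (log2 fold change -0.42, adjusted p = 0.305, limma). PRIM1, the small subunit of the primase, had 1.25 and 0.982 CPM against 0.666 and 0.473 CPM. RFC2, part of the complex that loads the sliding clamp, had 8.37 and 8.21 CPM in young livers against 7.15 and 9.30 CPM in old ones, and did not separate by age. The other MCM subunits with an identifier went different ways. MCM5 was higher in both old livers, as MCM2 was, with 30 and 55 reads in young and 86 and 61 reads in old livers. MCM4 was lower in both, with 42 and 63 reads in young and 18 and 13 in old livers, and MCM3 overlapped, with 23 and 27 reads against 18 and 14. These 3 were named after their values had been seen, because they belong to the same complex as MCM2.

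Of the mitosis list, 49 of 65 genes had an identifier and all 49 were tested. Without overlap between the ages, 25% of all mRNAs tested were lower and 24.4% higher in old livers. In this list, 12 genes were lower (24.5%) and 9 higher (18.4%). Lower among them was KIF22, a motor protein that moves chromosomes, with 1.38 and 1.76 CPM in young livers and 0.747 and 0.724 CPM in old livers (limma log2 fold change -0.56 ± 0.13, standard error, adjusted p = 0.255). SMC2, a core subunit of condensin, had 1.05 and 1.01 CPM in young livers against 0.682 and 0.501 CPM in old livers. BUB3, a partner of BUB1 in the spindle checkpoint, had 8.28 and 4.47 CPM in young livers against 4.03 and 3.04 CPM in old livers (adjusted p = 0.464, limma). CDCA3, which helps to trigger mitotic entry, was higher in old livers, with 7 reads and 0 reads in young livers and 24 and 40 reads in old livers (adjusted p = 0.267, limma). CDKN3, a phosphatase of cyclin-dependent kinases, was set apart by young replicate 2, at 8.67 CPM against 1.01 CPM in young replicate 1 and 0.260 and 1.39 CPM in old livers. HMMR, a spindle-associated protein, overlapped between the ages, with 2.83 and 1.16 CPM against 1.82 and 1.13 CPM.

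The counts of reads near the limit of detection ran in both directions in this list. NUF2 and PBK, named after their values had been seen, were in the same direction as CCNB1, NUF2 with 34 and 91 reads in young livers and 2 and 3 in old livers, and PBK with 14 and 21 reads against 1 read in each old liver. In the opposite direction, BUB1B, TTK, NDC80, MYBL2 and ZWINT, also named after their values had been seen, were listed at 0 in both young livers. They held between 1 and 7 reads in each old liver, although the young libraries were the larger ones. In young replicate 2, 13 of the 49 genes were listed at 0, in young replicate 1 it was 7, and in old replicates 1 and 2 it was 1 and 5. More zeros in young livers were general, as 11.2 and 16.3% of all mRNAs tested were at 0 in young replicates 1 and 2 and 2.43 and 2.62% in old replicates 1 and 2. With the same floor of 0.0487 CPM in every library, which is that of 3 reads in the smallest one, young replicates 1 and 2 had 34 and 31 genes of the list above it, and old replicates 1 and 2 had 42 and 30. CENPF, a kinetochore protein also named after its values had been seen, had 192 reads in old replicate 1 and between 2 and 14 in the other three livers.

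**Figure D3:**
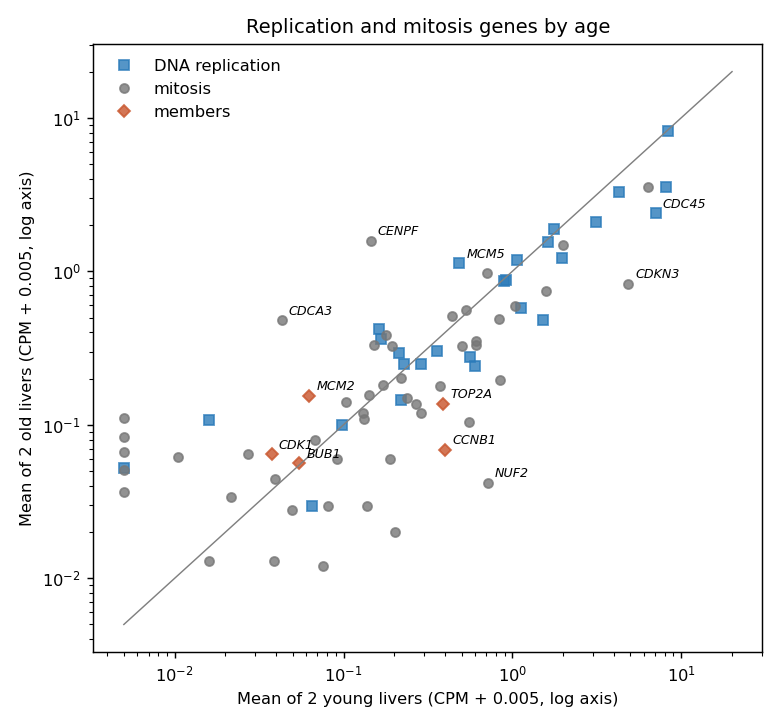
Mean level of the 2 old livers against that of the 2 young livers (both in CPM + 0.005, log axes) for genes of the DNA replication list (blue squares), the mitosis list (grey circles) and the members (orange diamonds), with a line of equality. CCNB1, TOP2A and NUF2 lie below the line and MCM2, CDCA3 and CENPF above it, and the points at the left edge are genes listed at 0 in both young livers.

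Brakes of the cell cycle had a median log2 fold change of -0.17 in limma with all 4 livers, against -0.05 for G1 cyclins and kinases, -0.04 for DNA replication, -0.03 for mitosis and -0.02 for all mRNAs tested. Of 25 symbols, 16 had an identifier and 15 were tested, with 7 lower (46.7%) and 4 higher (26.7%) in old livers without overlap. Among all mRNAs tested, 25% were lower and 24.4% higher without overlap. The median of the brakes ranged from -0.26 to 0.00 with 1 liver left out, and the upper value (0.00493, without young replicate 2) lay above that of DNA replication without the same liver (-0.06). In the exact test of edgeR the medians were -0.41 for brakes, 0.94 for G1 cyclins and kinases, 0.12 for DNA replication, -0.22 for mitosis and 0.12 for all mRNAs tested, and the median of the brakes was 0.27 without young replicate 2. CCNG1, which encodes cyclin G1, had 21.2 and 22.5 CPM in young livers (1948 and 1951 reads) and 7.15 and 10.8 CPM in old livers (440 and 776 reads). The log2 fold change of CCNG1, -1.22 ± 0.24 (standard error, limma, adjusted p = 0.230), went with groups far apart relative to their spread, and the exact test of edgeR gave -1.09 (adjusted p = 0.380). CDKN2C, the inhibitor p18 of CDK4 and CDK6, had 2.35 and 2.24 CPM in young livers against 0.585 and 0.974 CPM in old ones, with a log2 fold change of -0.90 ± 0.16 (standard error, limma, adjusted p = 0.228). E2F4, a repressor of cell cycle genes in resting cells, had 4.42 and 2.75 CPM in young livers and 4.76 and 5.82 CPM in old livers. CDKN2A, named after its values had been seen, had no read in either young liver and 45 and 12 reads in old replicates 1 and 2 (0.731 and 0.167 CPM). The mean of the old livers, most of it from old replicate 1, was 13.3-fold higher than 3 reads in each young library allow. That value leaves out the counting error of the old livers. The adjusted p-value of CDKN2A was 0.0641 in the exact test of edgeR. CDKN1A was listed at 0 in all 4 livers and was not tested.

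**Figure D4:**
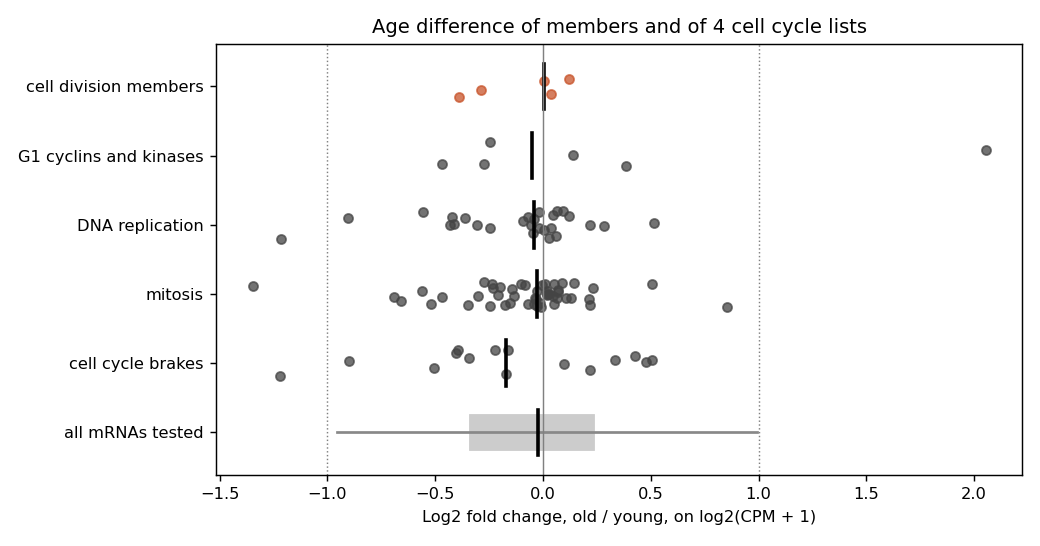
Log2 fold change of old over young livers on log2(CPM + 1) (horizontal axis) for the members (orange) and the genes of each list (grey), with 1 point per gene and black lines for medians. In the bottom row the box holds the middle of all mRNAs tested (25th to 75th percentile) and the line the 5th to 95th percentile, and the medians of all rows lie between -0.17 and 0.00.

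Livers also differed in markers of the cell types that could hold dividing cells, and the part of these differences in the member values was not tested. Hepatocyte markers were present in every library, with 9 of 10 symbols having an identifier, none at 0, and a summed level of 47480 and 53004 CPM in young and 33107 and 39170 CPM in old livers. Most of this difference was ALB (29468 and 35205 against 16534 and 23978 CPM), and the other 8 markers summed to 18012 and 17799 against 16573 and 15191 CPM, with 3 of the 9 lower and 6 overlapping between the ages. Those of T and NK cells (6 of 10, none at 0) summed to 8.61 and 11.1 CPM in young and 19.7 and 14.5 CPM in old livers. Endothelial markers (4 of 8, none at 0) summed to 66.8 and 69.4 CPM against 210 and 138 CPM. FCN2 carried most of that sum (36.8 and 42.7 against 148 and 107 CPM), PECAM1 was also higher in both old livers, and KDR and LYVE1 overlapped, with KDR at 2.26 CPM in old replicate 1 against 10.6 and 9.87 CPM in young livers. The sum of macrophage markers (5 of 10, none at 0) was 205 and 227 CPM against 293 and 285 CPM. Most of it was C1QA (181 and 204 against 255 and 241 CPM). The other 4 summed to 24.4 and 22.9 CPM in young against 38.1 and 43.3 CPM in old livers, with CSF1R and LYZ overlapping between the ages. B and plasma cell markers (6 of 10) summed to 115 and 98.8 CPM against 69.7 and 63.6 CPM, most of it XBP1, which hepatocytes also express. Without XBP1 the sum was 3.27 and 5.73 CPM in young and 16.1 and 6.16 CPM in old livers, the opposite direction, with POU2AF1 at 0.708 and 1.23 against 3.61 and 3.73 CPM and MZB1 at 1.10 and 2.58 against 11.4 and 2.03 CPM. Erythroid markers (8 of 10) summed to 635 and 460 CPM against 319 and 420 CPM, most of it HBB. Single erythroid markers went both ways, with 3 lower (HBB, ALAS2 and TFRC) and 4 higher (HBM, GATA1, EPB42 and KLF1) in old livers without overlap. KLF1 and EPB42 were at 0 in both young livers and GATA1 and HBM at 0 in young replicate 2. Cholangiocyte markers (6 of 8) summed to 40.6 and 40.1 CPM against 40.6 and 72.3 CPM, most of it CDH1 (31.2 and 28.3 against 30.2 and 53.2 CPM). Markers of stellate cells and fibroblasts (7 of 8, with LUM at 0 in young replicate 2) summed to 18.7 and 38.2 CPM against 13.9 and 52.5 CPM.

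**Figure D5:**
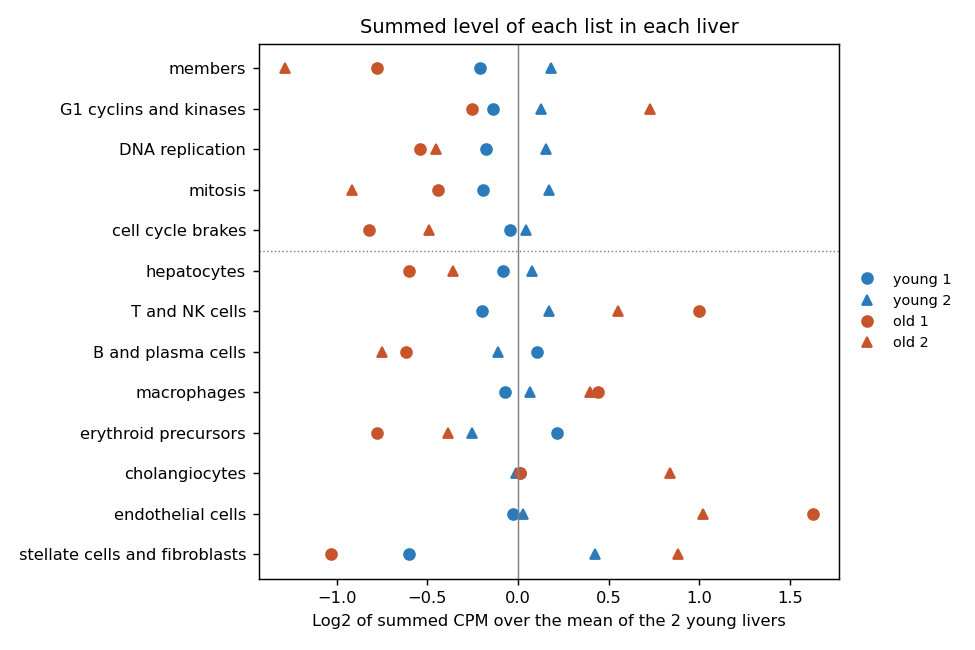
Summed CPM of each list in each liver, as log2 of its ratio to the mean of the 2 young livers (horizontal axis), with circles for replicate 1 and triangles for replicate 2. The members, DNA replication, mitosis and brakes are below 0 in both old livers, while T and NK cell, macrophage and endothelial markers are above 0 in both. Without CCNG1 the brakes sum to 14.8 and 15.7 CPM in young against 13.8 and 15.6 CPM in old livers, which overlap. Without BUB3 mitosis sums to 14.3 and 24.5 CPM in young against 14.9 and 10.6 CPM in old livers, which also overlap. The members without TOP2A still hold CCNB1 and sum to 0.479 and 0.59 CPM in young against 0.341 and 0.307 CPM in old livers. Without CCNB1 as well, no member lower in both old livers remains, as MCM2 was higher in both and CDK1 and BUB1 overlapped. DNA replication without RFC2, which itself overlaps between the ages, stays lower in both old livers.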

How the data were processed

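Liver RNA-seq libraries were grouped by the age in their labels (2 young, 2 old). The deposited CPM values of mRNAs and lncRNAs, which the authors name TPM, were made from clean reads aligned to Sscrofa10.2 with TopHat2 2.0.14, assembled with StringTie 1.2.3 and quantified with Salmon 0.6.0, per the labels and the study's methods. No gene length enters these CPM values, because within a library they are whole multiples of 1 step (at least 99.9% of values within 0.1 read), so levels of single genes were not compared with each other as amounts of transcript, and sums of CPM over a list and the choice of genes by mean CPM give long genes more weight. Whole reads were recovered by dividing by that step. Whether a unit is a read or a read pair, and whether counting used strand, is not given in the sources used here. Symbols were matched to 11654 of the 21607 identifiers. Small RNA and circRNA tables were not used here, and no sequence is shown.

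Python 3.11.15 (numpy 2.4.6, pandas 2.3.3, scipy 1.17.1, matplotlib 3.10.9) and R 4.3.3 (limma 3.58.1, edgeR 4.0.16) were used. Age was tested with limma on log2(CPM + 1) over mRNAs above 0 in at least 2 libraries, two-sided, with Benjamini-Hochberg adjustment, a scale that understates the change of low genes. The exact and quasi-likelihood tests of edgeR with TMM factors were run on recovered reads. These tests and limma were also run on simulated counts, and the outcome of those runs is not reported here. Nothing in the labels names separate cultures or batches, each library being 1 sow. Intervals and limits cover counting error only, and not the spread between sows. They treat reads as independent molecules, which PCR reads are not, so they may also be too narrow. Named genes of a cell cycle list were the 3 with the highest mean CPM and the 3 with the smallest limma p-value. Other genes of these lists were named after their values were seen. Values of some single genes of the lists are not reported here. The members and lists were chosen with earlier results of these data known. Leaving out libraries in the exact test was added after seeing the data.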

Additional observations from a re-analysis of the deposited data

How the results depend on the processing

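No member passed the thresholds under any alternative that kept it, and their adjusted p-values lay between 0.249 and 1. CCNB1, TOP2A and MCM2 kept their direction in all 15 alternatives. With 1 library left out in limma this was fixed beforehand, since their age groups did not overlap. Keeping mRNAs above 0 in at least 1 library, a replicate block and a mean-variance trend left their fold changes unchanged. A pseudocount of 0.1 changed the size of these fold changes but could not turn their sign, again because the age groups did not overlap. None of these settings could therefore test the direction. CDK1 lay between -0.00754 (without young replicate 2) and 0.0833 (without young replicate 1) in limma with 1 library left out and stayed above 0 in the exact test, and BUB1 turned to between -0.0488 and -0.0233 in limma and between -0.496 and -0.367 in the exact test of edgeR without young replicate 2 or old replicate 2. With a mean of at least 1 CPM required, none of the members remained to be tested. The median log2 fold change of the members, 0.00275, was 0.0498 with a pseudocount of 0.1, 0.265 in both tests of edgeR, between -0.0488 and 0.0543 in limma with 1 library left out and 0.696, -0.496, 0.699 and -0.367 in the exact test without young replicates 1 and 2 and old replicates 1 and 2, and the cause was not tested.

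Of all mRNAs, 0 were called in limma, 2 with a mean of at least 1 CPM required (9798 tested) and 534 in the exact test, and in the exact test 1291 and 688 without young replicates 1 and 2 and 135 and 400 without old replicates 1 and 2. Of the 97 genes of the 4 cell cycle lists, the exact test called 1 (CCNE1), and with 1 library left out between 0 and 6. Without young replicate 1 the 6 were AURKB, CCNE1, CDCA3, CDKN3, MYC and NUF2, without old replicate 2 it was CENPF alone, and without young replicate 2 or old replicate 1 none. Of mRNAs at an unadjusted p-value under 0.05, 43.1% were higher in old livers in limma (1145 of them, against 1509 lower), 61.5% with TMM scaling (1505 against 944) and 79.2% in the exact test. The median log2 fold change of all mRNAs was -0.02, 0.04 with TMM scaling and 0.12 in the exact test. Replicate numbers did not pair the sows, whose deviations correlated at 0.0902 across genes, and a replicate block left 0 calls of all mRNAs, 0 of the lists and 0 of the members, with a median of 0.00275 for the members.

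Of the 20 member values, 6 rest on 3 reads or fewer, and each age had 2 sows.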
